A study of Mus musculus with 8 samples.

Results

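The 9 genes described here carry the retinoic acid pathway from uptake to breakdown, and they were taken by symbol from the 55385 gene IDs counted in the fetal lungs: Stra6, Crabp1, Aldh1a1, Aldh1a2, Aldh1a3, Rara, Rarb, Rarg and Cyp26b1. Retinoic acid is the active form of vitamin A. Retinol from the blood is taken into cells, oxidized to retinal and then, by the aldehyde dehydrogenases of the Aldh1a family, to retinoic acid, which binds nuclear receptors that sit on DNA with retinoid X receptors, while Cyp26 enzymes clear it. In the lung the pathway is known for its part in forming the lung bud and, around birth, the alveoli.

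RNA was from whole lungs of C57BL/6 fetuses on embryonic day E18.5, 4 controls (control 1 to 4) and 4 with tracheal occlusion (TO 1 to 4). In TO fetuses the trachea was tied in utero earlier in gestation, and the same suture closed 1 carotid artery and jugular vein, so occlusion and vessel ligation cannot be told apart. Dams in this model received progesterone, and neither the labels nor the methods used here say how the control fetuses were handled or whether lungs shared a litter, so the p-values below measure the spread between these lungs. The study analysed 3 lungs a group (controls 1, 2 and 4, TO 2, 3 and 4), and these 6 libraries are compared first. Adding control 3 gives 7 libraries, and adding TO 1 gives all 8.

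Depth, as pairs of reads on genes, was 270078 for TO 1 and between 22822261 and 35002061 for each other library. Levels are CPM, read pairs of a gene scaled to a common library size by the TMM method. A single read pair is worth 3.43 CPM in TO 1 and 0.0284 to 0.0438 CPM elsewhere, so values of TO 1 rest on few pairs. All 7 lung identity genes examined (among them Sftpc, the surfactant protein of alveolar type 2 cells, and Nkx2-1, the lung epithelial transcription factor) were detected in every library, with summed levels of 7813 to 17038 CPM in the 7 deep libraries and 5902 CPM in TO 1. TO 1 also held the highest sums of 6 thymocyte markers, at 340 CPM with 1 of the 6 at 0 (Dntt) beside 1.98 to 17.9 CPM elsewhere, and of 9 cardiomyocyte markers, at 7708 CPM beside 521 to 6337 CPM, and their part in the values of TO 1 and of all 8 libraries was not tested. Controls 1 and 4 and TO 1 and 4 share the closing digits of their specimen names, whose meaning is not stated. These 4 libraries are called here the libraries with shared digits.

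No pathway gene passed the test between TO and control lungs. With the quasi-likelihood test of edgeR and Benjamini-Hochberg adjustment over all 21859 genes tested, 0 of 9 had an adjusted p under 0.1, as was the case for all genes (0%). DESeq2 called 0 of the 9 beside 0.202% of all genes, and limma-voom 0 of the 9 beside 0%. At an unadjusted p under 0.05 edgeR picked 1 of 9, Aldh1a1, beside 5.14% of all genes tested and 3.07% counted in its direction, higher in TO. The TO and control values of each of the 9 overlapped in the 6, the 7 and the 8 libraries, whereas the groups did not overlap for 10.9% of all genes in 6, 3.94% in 7 and 2% in 8 libraries. Of the 9 fold changes 6 were above 0 (49.3% of all genes), with a median log2 fold change of 0.11 against -0.0045 over all genes tested. Two-sided exact permutation tests of log2 CPM in the 6 libraries gave p from 0.3 to 1 for the 9 genes, where 0.1 is the smallest that 3 against 3 can give.

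**Figure D1:**
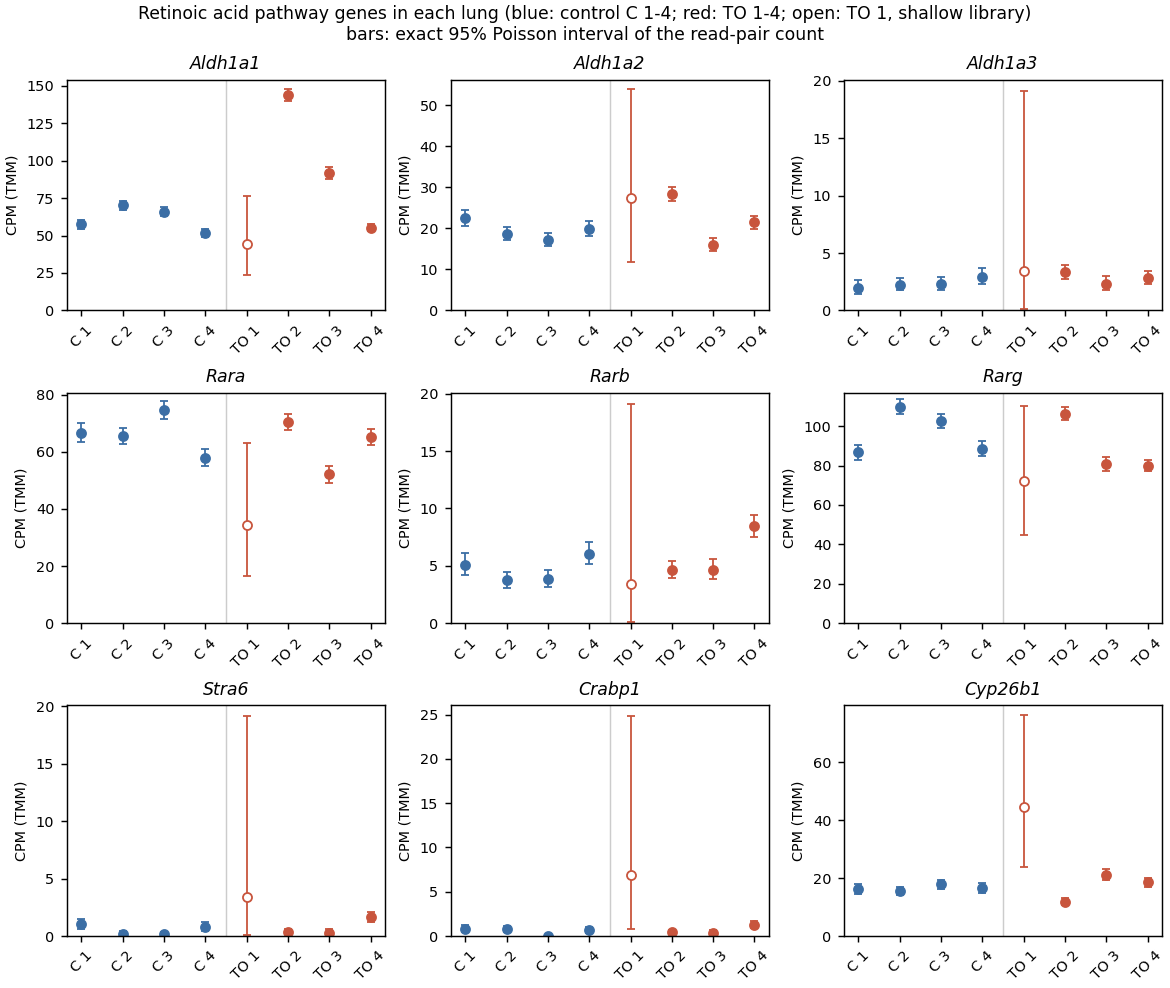
Level of each of the 9 genes in every library, in CPM (vertical axes from 0), for controls 1 to 4 (blue) and TO 1 to 4 (red, TO 1 open), with exact 95% Poisson intervals of the read pair counts as bars. Blue and red points overlap for every gene, Aldh1a1 is highest in TO 2 at 144 CPM, and the wide bars of TO 1 rest on 1 to 21 read pairs a gene.

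Per length, 2 receptors and 2 synthesis enzymes stood highest and the retinol receptor lowest. Over the 7 deep libraries Rarg was highest, at 21.9 ± 2.92 CPM per kilobase of exon (SD, n = 7), followed by Aldh1a1 at 15.5 ± 6.58, Rara at 14.8 ± 1.73 and Aldh1a2 at 9.10 ± 1.81. Cyp26b1, at 3.13 ± 0.54 CPM per kilobase, and Rarb, at 1.60 ± 0.50, stood lower. Crabp1 had 0.756 ± 0.492 CPM per kilobase, Aldh1a3 0.555 ± 0.103 and Stra6 0.109 ± 0.0935. Only 2 neighbours in this order had ranges that did not overlap over the 7 libraries, Aldh1a2 above Cyp26b1 and Aldh1a3 above Stra6. Aldh1a1 lay above Rara in 2 of 7 libraries, so the order of those genes differed from lung to lung. The lengths count every annotated exon base not shared with other genes, whether or not it was expressed here. Aldh1a1 has 4937 such bases in 21 exon blocks, while its close copy Aldh1a7 has 2066 in 13. The order and the ratios per kilobase thus depend on the annotation.

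**Figure D2:**
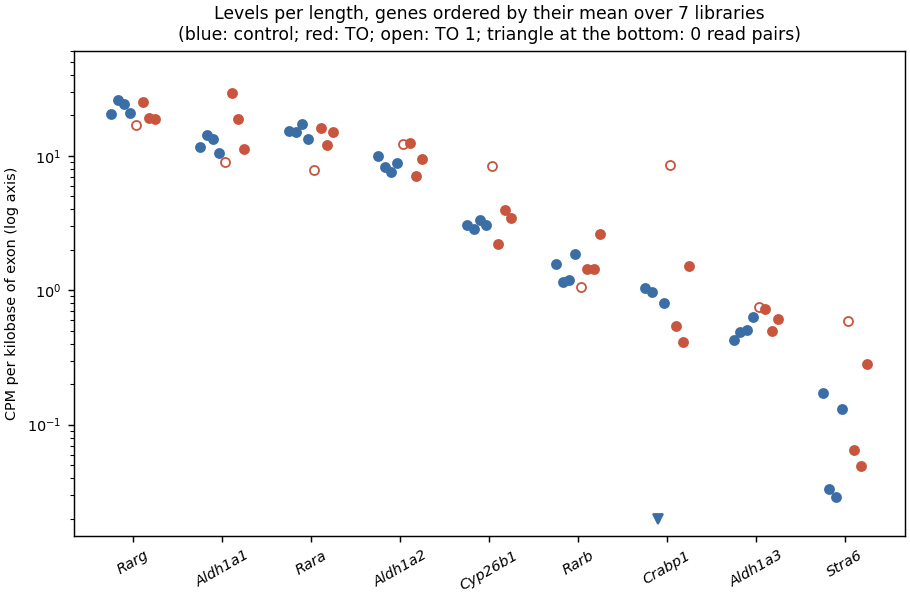
CPM per kilobase of exon on a log axis for the 9 genes, ordered by their mean over the 7 deep libraries, with 1 point a library (blue control, red TO, open TO 1, triangle 0 read pairs in control 3). The genes span from 21.9 CPM per kilobase for Rarg to 0.109 for Stra6.

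Uptake is represented here by the RNA of Stra6, the membrane receptor that takes retinol from its plasma carrier (ENSMUSG00000032327.14, chr9:58063788-58153996, plus strand, all gene positions on GRCm38). No uptake, binding, breakdown or retinoic acid was measured. Stra6 was at 1.01 CPM in control 1, 0.195 in control 2, 0.168 in control 3 and 0.768 in control 4, and at 3.43 CPM in TO 1, which is 1 read pair, 0.376 in TO 2, 0.289 in TO 3 and 1.65 in TO 4. Among the 7 deep libraries those with shared digits held 0.768 to 1.65 CPM and the others 0.168 to 0.376 CPM, while TO and control overlapped. TO 1 stood above them by its 1 read pair, with a 95% Poisson interval of 0.087 to 19.1 CPM, so it cannot be placed. The counting intervals of control 4 (0.463 to 1.20 CPM) and TO 2 (0.200 to 0.643 CPM) also overlapped. The log2 fold change in TO was 0.26 (SE 0.90, 95% interval -1.77 to 2.29, edgeR, 6 libraries), and it was -0.95 without TO 4. In TO 2 all 13 read pairs of Stra6 lay on 1 strand, whereas 49.9% to 50.1% of all pairs on genes lay on the first strand in each library.

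Binding of retinoic acid in the cytoplasm is represented by the RNA of Crabp1 (ENSMUSG00000032291.8, chr9:54764748-54773110, plus strand). Its level was 0.832 CPM in control 1, 0.780 in control 2, 0 in control 3 and 0.647 in control 4, and 6.87 CPM in TO 1 from 2 read pairs, 0.434 in TO 2, 0.331 in TO 3 and 1.22 in TO 4. The 0 of control 3 allows up to 0.101 CPM if the limit is set at 3 read pairs, and 0.124 CPM by the two-sided exact Poisson interval that the plot of levels by library draws. In TO 4 all 43 pairs lay on the first strand and in TO 2 all 15 on the second, and reads without molecular identifiers are not independent molecules. The log2 fold change was -0.17 (SE 0.70, 95% interval -1.76 to 1.42, edgeR, 6 libraries), 0.24 in 7 libraries and 0.79 in all 8, so its sign depended on the libraries taken.

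The synthesis enzymes held the largest difference in RNA among the 9 genes in the 6 libraries. Aldh1a1, which oxidizes retinal to retinoic acid (ENSMUSG00000053279.8, chr19:20492715-20643465, plus strand), was at 57.5 CPM in control 1, 70.1 in control 2, 65.8 in control 3 and 51.5 in control 4, and at 44.6 CPM in TO 1 (13 read pairs, 95% Poisson interval 23.8 to 76.3), 144 in TO 2, 91.8 in TO 3 and 55.2 in TO 4. TO 2 and TO 3 lay above every control, while TO 1 and TO 4 lay among or below them. In the 6 libraries the mean was 96.9 ± 44.5 CPM in TO and 59.7 ± 9.52 in control (SD, n = 3 each), a fold change of 1.62 (log2 0.69, SE 0.29, 95% interval 0.04 to 1.35). The unadjusted p of edgeR was 0.0400 and its adjusted p 0.907, and the exact permutation test gave p = 0.3. The log2 fold change was 0.54 in all 8 libraries (SE 0.28), and 0.30 in the 6 libraries without TO 2.

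Aldh1a1 levels also moved with the specimen digits and partly with the summed airway and lung identity markers. The 4 libraries with shared digits held 44.6 to 57.5 CPM and the other 4 held 65.8 to 144. The 6 libraries compared first are not balanced for the digits. Controls 1 and 4 and TO 4 share them, while control 2, TO 2 and TO 3 do not, and the part of this in the fold change was not tested. The difference of mean log2 CPM between TO and control was 0.76 within the other 4 libraries and -0.13 within those with shared digits (0.02 without TO 1), with 2 lungs or fewer on each side and no test. Over all 8 libraries, 2 of the 9 genes, Aldh1a1 and Stra6, did not overlap between the 2 sets of digits, beside 6.97% of all genes, but Stra6 in TO 1 rests on 1 read pair. In the 7 deep libraries Rarb joined them, 3 of 9 beside 10.4%. The summed level of 6 club and ciliated airway markers (Scgb1a1, Scgb3a2, Cyp2f2, Foxj1, Cbr2 and Gsta3) was 1159, 1572, 1641 and 1070 CPM in controls 1 to 4 and 941, 2559, 2391 and 1035 CPM in TO 1 to 4. All 6 were detected in every library but TO 1, where Gsta3 was at 0. TO 2 and TO 3 were thus the highest, and TO 1, TO 4 and control 4 the lowest, for both Aldh1a1 and this sum. Scgb3a2 and Cbr2 made up most of it, and single markers differed in order: Gsta3 was second highest in TO 4, at 12.2 CPM beside 7.27 in TO 3, and Foxj1 was higher in control 2, at 80.6 CPM, than in TO 3, at 74.0 CPM. The sum of the 7 lung identity genes was 10340, 14933, 10669 and 8548 CPM in controls 1 to 4 and 5902, 17038, 13174 and 7813 CPM in TO 1 to 4, highest in TO 2 and lowest in TO 1, TO 4 and control 4 as well. Sftpc made up most of this sum, at 12777.5 CPM in TO 2. Sftpc, Sftpb and Tcf21 were highest in TO 2, but Nkx2-1, Hopx, Ager and Foxf1 were not. Nkx2-1 was at 496 CPM in TO 2 beside 571, 748, 529 and 555 CPM in controls 1 to 4. Hopx was at 147 CPM in TO 2 and 198 in control 3, and Ager at 920 in TO 2 and 954 in control 3. Foxf1 was at 128 CPM in TO 2 and 131 in control 1. The part of either cell population in the Aldh1a1 difference was not tested. In RNA of whole lung, fewer cells of a type and less RNA per cell cannot be told apart, nor can their opposites.

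A close copy of the gene, Aldh1a7, lies beside it on chromosome 19, and the bases ahead of each start are shown to let the close copies be compared there. They lie outside the transcripts of these starts and do not bear on how reads were assigned. The lines give 120 bases up to the base before the RefSeq start on GRCm38.p6, 5′ to 3′ on each gene's own strand, with the longest shared run of 65 bases in capitals.
Aldh1a1 (chr19:20601848-20601967, plus strand): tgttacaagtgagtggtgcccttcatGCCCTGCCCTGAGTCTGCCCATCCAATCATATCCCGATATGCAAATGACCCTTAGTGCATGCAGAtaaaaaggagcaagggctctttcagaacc
Aldh1a7 (chr19:20727557-20727676, minus strand): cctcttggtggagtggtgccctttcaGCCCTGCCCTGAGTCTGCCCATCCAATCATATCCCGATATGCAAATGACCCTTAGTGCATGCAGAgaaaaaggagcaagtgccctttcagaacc
Of 120 aligned positions 105 (87.5%) were identical. The longest open reading frames of the transcripts were 91.9% identical, but 0% of the 150-base windows of Aldh1a1 recurred unchanged in Aldh1a7, so a full-length read over the coding sequence could tell them apart. Aldh1a7 was at 148, 156, 92.3 and 130 CPM in controls 1 to 4 and at 85.8, 177, 155 and 130 CPM in TO 1 to 4. Its log2 fold change was 0.09 (SE 0.13, 6 libraries), and its highest library was also TO 2, followed by control 2.

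The genes with the most similar pattern to Aldh1a1 over the 7 deep libraries, by the root-mean-square difference of centred log2 CPM among 14596 genes, were Car8 (0.09), Sftpa1, which encodes surfactant protein A (0.12), and Hp, which encodes haptoglobin (0.13). Sftpa1 stood at 990 CPM in TO 2, 746 in TO 3 and 430 in TO 4, beside 431 to 595 CPM in the controls.

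**Figure D3:**
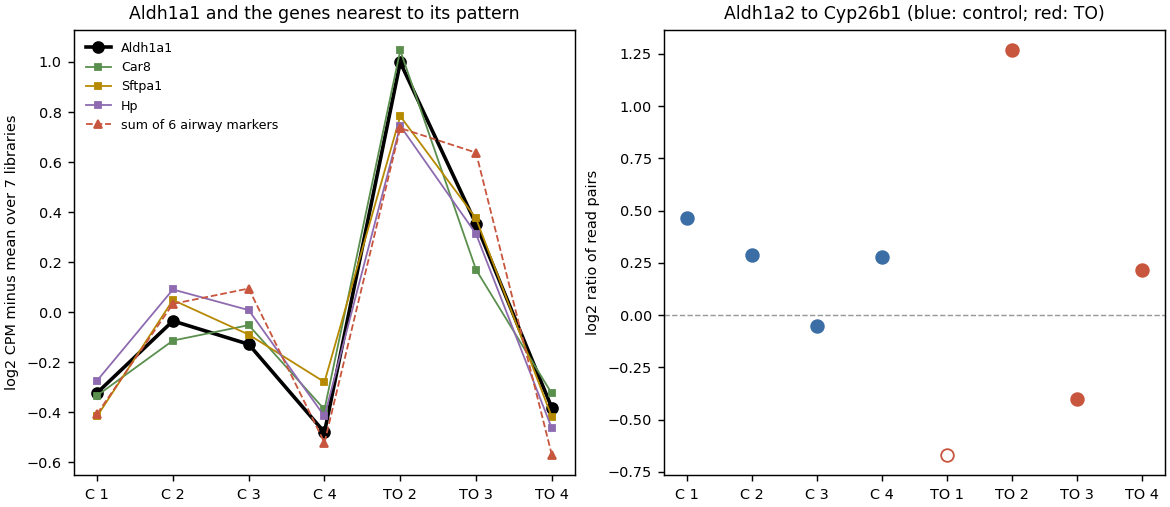
Left, log2 CPM minus the mean over 7 libraries for Aldh1a1, its 3 nearest genes and the sum of 6 airway markers; all 5 lines are highest in TO 2, with TO 3 next. Right, the log2 ratio of Aldh1a2 to Cyp26b1 read pairs in all 8 libraries (blue control, red TO, open TO 1), where TO 2 is highest at 1.27 and the controls lie between -0.05 and 0.46.

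Aldh1a2, the chief retinoic acid producing enzyme of embryonic mesoderm (ENSMUSG00000013584.5, chr9:71215789-71296243, plus strand), was at 22.5 CPM in control 1, 18.8 in control 2, 17.2 in control 3 and 19.97 in control 4, and at 27.5 CPM in TO 1 (8 read pairs), 28.3 in TO 2, 16.0 in TO 3 and 21.5 in TO 4. TO 2 was highest and TO 3 lowest of all 8 libraries, so the TO group enclosed the controls. The log2 fold change was 0.11 (SE 0.21, 95% interval -0.38 to 0.59, 6 libraries). Mesothelium expresses Aldh1a2, and the summed level of 7 mesothelial markers was 517 to 961 CPM in controls, 431 to 742 CPM in TO 2 to 4 and 374 CPM in TO 1, with none at 0.

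Aldh1a3, the third enzyme of the family (ENSMUSG00000015134.15, chr7:66390890-66427517, minus strand), was at 1.97, 2.24, 2.32 and 2.91 CPM in controls 1 to 4. In TO 1 to 4 it was at 3.43 CPM (1 read pair), 3.32, 2.31 and 2.84 CPM. TO 3 lay within the controls and TO 2 above them, and the log2 fold change was 0.25 (SE 0.34, 95% interval -0.53 to 1.03). Per kilobase, Aldh1a2 was 14.0 to 23.2 times as high as Aldh1a3 in each of the 7 deep libraries, and Aldh1a1 was 1.17 to 2.64 times as high as Aldh1a2. The Aldh1a1 to Aldh1a2 ratio was highest in TO 2 and TO 3, at 2.33 and 2.64, with the controls between 1.17 and 1.75 and TO 4 at 1.18.

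The receptors Rarg and Rara had the narrowest intervals of the 9 genes. Rarg, the retinoic acid receptor gamma (ENSMUSG00000001288.15, chr15:102234938-102257517, minus strand), was at 86.7 CPM in control 1, 110 in control 2, 103 in control 3 and 88.6 in control 4, and at 72.1 CPM in TO 1 (21 read pairs), 106 in TO 2, 80.7 in TO 3 and 80.0 in TO 4. TO 1, TO 3 and TO 4 lay below every control, but TO 2 lay above all of them but control 2. The log2 fold change was -0.09 (SE 0.15, 95% interval -0.43 to 0.24, 6 libraries).

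Rara, the receptor alpha (ENSMUSG00000037992.16, chr11:98927818-98974942, plus strand), was at 66.6 CPM in control 1, 65.4 in control 2, 74.5 in control 3 and 57.9 in control 4, and at 34.3 CPM in TO 1 (10 read pairs), 70.5 in TO 2, 52.1 in TO 3 and 65.1 in TO 4. The groups were interleaved apart from TO 1 and TO 3, the lowest values. Its log2 fold change was -0.02 (SE 0.14, 95% interval -0.33 to 0.30). Per kilobase, Rarg exceeded Rara in each of the 7 deep libraries, by 1.26 to 1.72 times, and Rara exceeded Rarb by 5.73 to 14.3 times.

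Rarb, the receptor beta, is itself induced by retinoic acid through an element in its promoter (ENSMUSG00000017491.9, chr14:16430839-16819156, minus strand). The element is a direct repeat of a receptor half-site with 5 bases between the copies (DR5). The half-sites searched were the consensus AGGTCA together with its variants, which read AGTTCA for one, GGGTCA for another and GGTTCA for the last, and any pair of them at that distance on either strand was taken, in the 300 bases around each RefSeq start. Of 32851 windows 32 (0.0974%) held such a pair. Among the 9 genes 8 had a window (Aldh1a3 had none), and of those 1, Rarb, held it. Among 63 further retinoid genes 44 had a window and 1 held it, Cyp26a1, which encodes a retinoic acid degrading enzyme. The 250 bases before both starts are shown as the places where a response to retinoic acid would be read, with the element in capitals.
Rarb (chr14:16575477-16575726, minus strand): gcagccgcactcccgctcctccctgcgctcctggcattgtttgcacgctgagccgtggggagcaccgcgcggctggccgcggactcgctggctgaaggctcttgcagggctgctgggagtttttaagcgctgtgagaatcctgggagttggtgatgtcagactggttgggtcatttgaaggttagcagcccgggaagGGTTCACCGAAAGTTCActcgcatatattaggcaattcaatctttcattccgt
Cyp26a1 (chr19:37697558-37697807, plus strand): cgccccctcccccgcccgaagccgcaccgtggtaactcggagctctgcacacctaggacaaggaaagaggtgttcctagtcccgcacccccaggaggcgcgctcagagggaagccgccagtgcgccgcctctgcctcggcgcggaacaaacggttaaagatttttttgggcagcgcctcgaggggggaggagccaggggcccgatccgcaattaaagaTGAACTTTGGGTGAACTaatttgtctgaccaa
The element of Rarb reads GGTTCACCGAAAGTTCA on the strand of the gene, from 53 to 37 bases before the start. That of Cyp26a1 reads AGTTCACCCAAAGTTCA on the opposite strand, from 32 to 16 bases before the start. The windows were also searched for the same half-sites at spacings of 1 base (0.222% of windows) and 2 bases (0.268%), and none of the 9 genes held either. A match of letters is a description and shows no binding.

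Rarb was at 5.08 CPM in control 1, 3.74 in control 2, 3.86 in control 3 and 6.06 in control 4, and at 3.43 CPM in TO 1 (1 read pair), 4.63 in TO 2, 4.63 in TO 3 and 8.44 in TO 4. TO 4 was the highest library and the other TO lungs lay within or just under the control range. The log2 fold change was 0.25 (SE 0.34, 95% interval -0.51 to 1.01, 6 libraries), and -0.09 without TO 4. In the 7 deep libraries, those with shared digits held 5.08 to 8.44 CPM and the others 3.74 to 4.63. Of the exon bases of Rarb 38.4% also belong to Top2b or Gm48162 on the opposite strand, and pairs there are not counted for either gene in these unstranded counts, so the level is that of the remaining exons. Cyp26a1, the other gene with the element, was at 0.219, 0.0976, 0.101 and 0.162 CPM in controls 1 to 4 and at 0, 0.318, 0.0413 and 0.995 CPM in TO 1 to 4, also highest in TO 4. These levels rest on few counts, 35 read pairs in TO 4 and 0 to 11 in each other library. Nearest to the pattern of Rarb over 7 libraries were Hsd17b7 (root-mean-square difference 0.08), Gpr161 (0.10) and Slc38a4 (0.10).

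Breakdown is represented by the RNA of Cyp26b1, a cytochrome P450 that oxidizes retinoic acid (ENSMUSG00000063415.12, chr6:84571414-84593908, minus strand). It was at 16.3 CPM in control 1, 15.4 in control 2, 17.8 in control 3 and 16.5 in control 4, and at 44.6 CPM in TO 1 (13 read pairs, 95% Poisson interval 23.8 to 76.3), 11.8 in TO 2, 21.1 in TO 3 and 18.48 in TO 4. The controls were close together, whereas TO 2 lay below all of them and the other TO lungs above. The means of the 6 libraries were 16.0 ± 0.58 CPM in control and 17.1 ± 4.80 in TO (SD, n = 3 each), and the log2 fold change was 0.09 (SE 0.22, 95% interval -0.41 to 0.59).

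The ratio of Aldh1a2 to Cyp26b1 sets the RNA of a synthesis enzyme against that of a breakdown enzyme within a library and needs no scaling. Aldh1a1, the synthesis enzyme with the highest mean level per kilobase, is not part of it. Its log2 value, from read pairs plus 0.5, was 0.46, 0.29, -0.05 and 0.28 in controls 1 to 4 and -0.67, 1.27, -0.40 and 0.22 in TO 1 to 4. TO 2 lay above and TO 1 and TO 3 below every control. In the 6 libraries the mean was 0.34 ± 0.10 in control and 0.36 ± 0.84 in TO (SD, n = 3 each), a difference of 0.02 (two-sided exact permutation p = 1, smallest possible 0.1). Without TO 2 the difference was -0.44 (exact permutation p = 0.1, the smallest possible there). With any other of the 6 libraries left out the exact permutation p was 0.6 or more. In all 8 libraries the difference was -0.14 (exact permutation p = 0.829, smallest possible 0.0286).

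**Figure D4:**
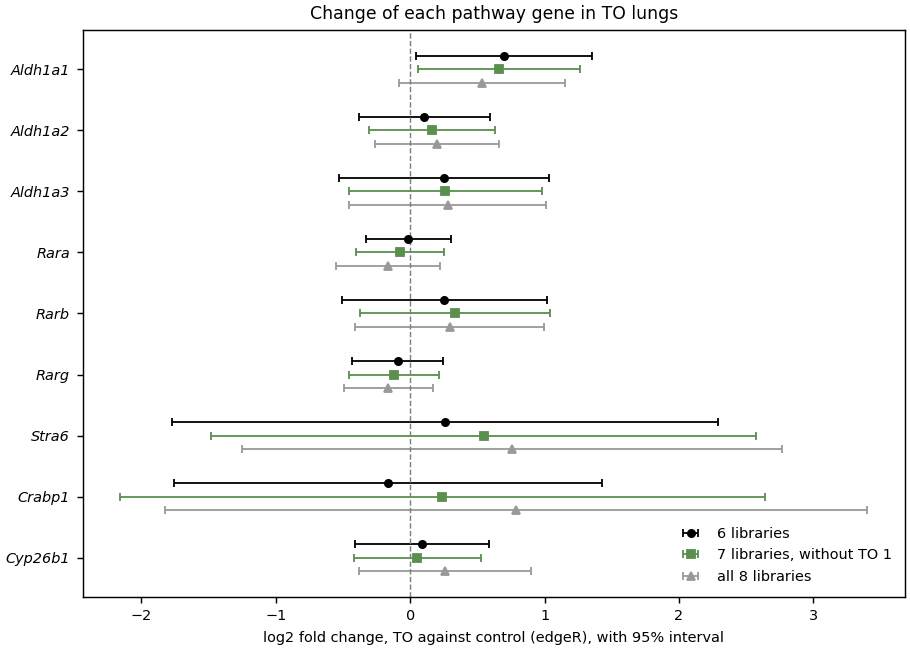
Log2 fold change of each gene in TO against control from edgeR with its 95% interval, in the 6 libraries (black circles), the 7 without TO 1 (green squares) and all 8 (grey triangles). Of the 27 intervals those of Aldh1a1 in 6 and 7 libraries alone leave out 0, and those of Stra6 and Crabp1 are widest.

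For these genes TO lungs spread more widely than control lungs. In the 6 libraries the SD of CPM was larger in TO than in control for 9 of 9 genes, beside 59.6% of all genes tested, and in 7 libraries for 9 of 9 beside 43.5%. The count in 7 libraries stayed at 9 when any control was left out, and was 7 without TO 2 (39.1% of all genes), 7 without TO 3 (35.4%) and 6 without TO 4 (35.8%). This count was made after the values had been seen and has no test. Over the 7 deep libraries the SD of log2 CPM was 0.52 for Aldh1a1, larger than in 90.9% of 13107 genes, and 0.40 for Rarb (81.5%). It was 0.27 for Aldh1a2 and 0.26 for Cyp26b1, near the median of 0.237 over all genes, and 0.19 for Rarg and 0.17 for Rara. Genes whose levels followed Aldh1a2 most closely were Hmgcs1, an enzyme of cholesterol synthesis, Fam219b and Extl2 (root-mean-square differences of 0.09 to 0.10).

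The rest of the pathway was described with 63 further retinoid genes, of which 57 passed the filter in the 6 libraries. With that filter and all 6 libraries, none had an adjusted p under 0.1 in edgeR without a block. An unadjusted p under 0.05 was found for 3 (5.26%, beside 5.14% of all genes), and all 3 of those were higher in TO. Fold changes were above 0 for 35 and below for 22, beside 49.3% of all genes above 0, with a median log2 fold change of 0.06. In all 8 libraries, however, they were above 0 for 24 and below for 35, beside 46.8% of all genes above 0. TO and control did not overlap for 5 of the 57 (8.77%, beside 10.9% of all genes), namely Lpl, Fabp5, Cdx1, Tgm2 and Nr2f1. In 7 libraries, where 59 were tested, this held for 1, Cdx1, beside 3.94% of all genes. In all 8, with 59 tested as well, it held for 0 beside 2% of all genes. Cdx1 and Nr2f1 are named from their lack of overlap, and Cdx1 was at 0.313 CPM or less in every library.

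Of 12 genes of retinol uptake, transport and storage 10 were tested, 6 higher and 4 lower in TO. Lpl, the lipoprotein lipase, was at 68.3, 63.9 and 111 CPM in controls 1, 2 and 4 and at 116, 175 and 160 CPM in TO 2 to 4. Its log2 fold change was 0.88 (SE 0.23, unadjusted p 0.00406, adjusted p 0.907, edgeR), and DESeq2 gave it an adjusted p of 0.0454. Control 3, however, held 295 CPM and TO 1 168 CPM, both left out of that fit, and the log2 fold change was 0.15 in 7 libraries and 0.19 in all 8 (SE 0.42). The sum of 9 cardiomyocyte markers, none of them at 0, was 741, 521, 5397 and 4282 CPM in controls 1 to 4 and 7708, 2435, 3660 and 6337 CPM in TO 1 to 4. Controls 1 and 2 were lowest for Lpl and for this sum, but not for each marker: Myl2 was at 5.24 CPM in control 2 beside 1.73 in TO 2 and 1.78 in TO 3. The sum of 5 lipofibroblast markers, Lpl itself among them, was highest in control 3, at 869 CPM, and TO 3, at 730 CPM, as Lpl was. It was lowest in TO 1, at 429 CPM. The part of cardiac tissue or of lipofibroblasts in the Lpl difference was not tested. Lrp1, the remnant receptor, had a log2 fold change of 0.17 (SE 0.18), which was -0.22 in all 8 libraries.

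Rbp4 and Ttr, the plasma carriers of retinol made chiefly by liver, stood high in single lungs. Rbp4 was at 14.8, 6.37, 7.02 and 6.63 CPM in controls 1 to 4 and at 6.87, 5.64, 6.53 and 17.3 CPM in TO 1 to 4. Ttr was at 13.5, 0, 0 and 0.445 CPM in controls 1 to 4 and at 0, 0.549, 0 and 33.2 CPM in TO 1 to 4. The summed level of 7 hepatocyte markers was likewise highest in control 1, at 868 CPM, and TO 4, at 344 CPM, and from 2.60 to 96.1 CPM in the others. Single markers differed, with Afp at 3.61 CPM in TO 4 beside 7.52 in TO 2. The sum of 6 markers of esophagus and stratified epithelium, none at 0, was also highest in control 1, at 462 CPM, and TO 4, at 460 CPM. It was 402 CPM in TO 1 and 94.9 to 124 CPM in the others. The part of either tissue in the carrier levels was not tested. In control 2 the hepatocyte sum was 2.60 CPM with 3 of the 7 at 0 (Apoa1, Serpina1a and Fgb).

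Among 17 retinol and retinal oxidoreductases 15 were tested, 8 higher and 7 lower, with none at an unadjusted p under 0.05. Adh1, an alcohol dehydrogenase that oxidizes retinol, had the highest CPM of this group and a log2 fold change of -0.33 (SE 0.25). Of 5 binding and degrading genes 4 were tested. All 4 fold changes were above 0 in the 6 libraries (49.3% of all genes) and 3 of 4 in all 8 (46.8%). Fabp5, a fatty acid binding protein that also binds retinoic acid, was at 87.9, 106, 117 and 99.3 CPM in controls 1 to 4 and at 199, 159, 118 and 112 CPM in TO 1 to 4. Only TO 4 lay within the control range, under control 3, and the log2 fold change was 0.41 (SE 0.15, unadjusted p 0.0217, adjusted p 0.907, edgeR, 6 libraries) and 0.48 in all 8. Cyp2s1, another P450, had a log2 fold change of 0.38 (SE 0.23) in the 6 libraries and -0.13 in all 8, where control 3 held 123 CPM.

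All 11 retinoid X receptors, corepressors and coactivators were tested, with none at an unadjusted p under 0.05. In the 6 libraries 9 were higher and 2 lower, beside 49.3% of all genes above 0. In all 8 libraries 3 were higher and 8 lower, beside 46.8% of all genes above 0. The corepressor Ncor1, the highest of this group in CPM, had a log2 fold change of 0.13 (SE 0.13), which was -0.047 in all 8 libraries. Of 18 genes known to be induced by retinoic acid 17 were tested, 8 higher and 9 lower, with a median log2 fold change of -0.05. Tgm2, which encodes transglutaminase 2, was at 104, 110 and 138 CPM in controls 1, 2 and 4 and at 166, 180 and 141 CPM in TO 2 to 4. Its log2 fold change was 0.46 (SE 0.14, unadjusted p 0.00969, adjusted p 0.907, edgeR), but control 3 held 197 CPM, the highest value, and in all 8 libraries the log2 fold change was 0.15 (SE 0.21). Controls 1 and 2, the lowest for Tgm2 as for Lpl, were also those with the lowest cardiomyocyte sums, whose part was not tested. The transcription factors Nr2f2 and Tbx5, the highest of this group in CPM, had log2 fold changes of -0.05 (SE 0.12) and 0.08 (SE 0.15).

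**Figure D5:**
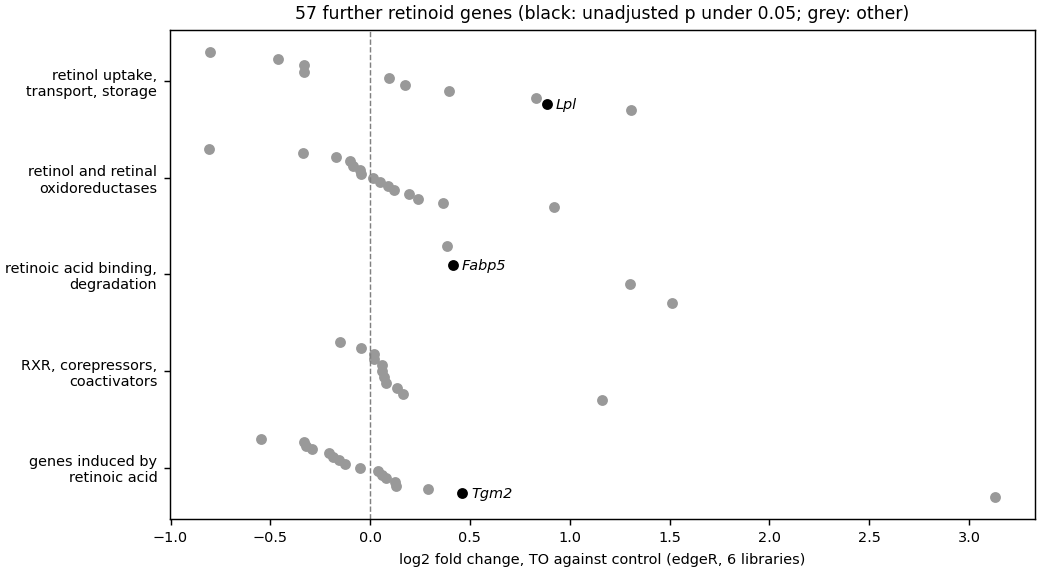
Log2 fold change in TO against control (edgeR, 6 libraries) of 57 further retinoid genes, 1 point a gene, in 5 groups by role; black points have an unadjusted p under 0.05 and are named. The 3 black points, Lpl at 0.88, Tgm2 at 0.46 and Fabp5 at 0.41, lie right of 0, and the point at 3.13 is Cdx1, at 0.313 CPM or less in every library.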

How the data were processed

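RNA of whole fetal lungs was made into NexteraXT libraries and sequenced as 150-base read pairs by the authors, who aligned them to GRCm38 with STAR. They deposited unnormalized counts of pairs for each gene, once regardless of strand and once per strand. The version of STAR and the annotation are not given in the sources used here. The submitters' processing notes also name DESeq2. The reads carry no molecular identifiers, so intervals cover counting error only, and depth was 22822261 to 35002061 pairs on genes except TO 1 with 270078.

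Of 55385 gene IDs 55144 matched symbols of GENCODE M21. The counts regardless of strand were used. A gene needed 5 or more reads in 3 libraries and was tested with edgeR 4.0.16 in R 4.3.3 after TMM scaling, at an adjusted p under 0.1. Levels used TMM factors of all 8 libraries, and log2 levels a prior count of 2. Standard errors and 95% intervals were derived from the F statistic of the fit. Alternatives were DESeq2 1.42.0, limma-voom 3.58.1, other filters and scaling, 1 strand, blocks and libraries left out. The fits were tested on simulated data. Levels per kilobase used all annotated exon bases not shared with other genes, whether or not they were expressed in these lungs.

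The 9 genes, the lists and the tests were chosen with earlier results of these data known. Of the further genes, those named are the 2 with the highest CPM of each role, any with an adjusted p under 0.1 in edgeR or DESeq2 or an unadjusted p under 0.05 in edgeR, and Rbp4 and Ttr. Of these, 1 is not reported here by name. Cyp26a1 was added for its promoter element, and Cdx1 and Nr2f1 after their values were seen. For likeness the 3 genes nearest to each of the 3 most variable pathway genes with at least 50 read pairs in each of the 7 deep libraries were taken, which leaves out Crabp1, Stra6 and Aldh1a3. Promoter bases are from RefSeq (GRCm38.p6).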

Additional observations from a re-analysis of the deposited data

Results flagged for a closer look

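In 46 groups of 4 libraries, those of the named genes and of the Aldh1a2 to Cyp26b1 ratio, 6 had 1 library far from the others by Dixon's test. About 2.3 would be flagged by chance among groups picked without knowledge of the data. These groups were not picked so, since Rbp4 and Ttr were named beside the hepatocyte markers with earlier results known. The count of 6 is thus a description and cannot be compared with chance. Crabp1 was at 6.87 CPM in TO 1, from 2 read pairs. Cyp2s1 was at 123 CPM in control 3. Control 1 stood apart for Rbp4, at 14.8 CPM, and for Ttr, at 13.5 CPM. TO 4 stood apart for Rbp4, at 17.3 CPM, and for Ttr, at 33.2 CPM. Those 2 lungs also held the highest sums of hepatocyte markers and of esophagus and stratified epithelium markers, and the part of either tissue was not tested.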

How the results depend on the processing

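All 9 pathway genes stayed without an adjusted p under 0.1 in every alternative run, and the cause of the sign changes below was not tested. The number of genes called among all tested, 0 with edgeR in the 6 libraries, was 44 with DESeq2, 7 with DESeq2 in 8 libraries, 40 with no filter beyond 1 read, and 0 to 144 with 1 library left out (144 without TO 4, 52 without control 4). Of the wider list, 0 genes were called at first, 1 with DESeq2, 1 with no filter beyond 1 read and 0 to 1 with 1 library left out. The gene called was Lpl each time, with adjusted p of 0.0566 in edgeR with no filter beyond 1 read and 0.0969 in edgeR without control 4.

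With the replicate block 219 genes were called in the 6 libraries and 3 in all 8, 2 and 0 of them from the wider list. In the 6 libraries control 1 and TO 3 have no partner of the same number, so that fit rests on numbers 2 and 4 alone. The 2 genes it called were Lpl (log2 fold change 0.69, adjusted p 0.0114) and Ttr (6.24, adjusted p 1.51e-08), and 0 of the 9 pathway genes were called. For Ttr the 13.5 CPM of control 1 thus carried no weight. Its value rests on 0.549 CPM in TO 2 beside 0 in control 2, and 33.2 in TO 4 beside 0.445 in control 4. The labels do not say that a number marks a shared litter or day. Correlations of same-numbered lungs were 0.205, 0.283 and 0.153 for numbers 2 to 4, whose 6 libraries each correlated best with their own number, and 0.087 for number 1, the pair that holds TO 1. The block was therefore kept as an alternative, and whether the numbers pair the lungs was not settled. Under that block in 6 libraries, where only the lungs numbered 2 and 4 are compared, some signs differed from the fit without a block. The log2 fold change was 0.14 for Rara, 0.052 for Crabp1, -0.10 for Cyp26b1, -0.10 for Lrp1 and -0.016 for Tbx5. The replicate block in all 8 gave 1.52 for Crabp1, -0.24 for Lrp1, -0.16 for Cyp2s1, -0.038 for Ncor1 and -0.10 for Tbx5. A block by specimen digits in all 8 gave 1.48 for Crabp1, -0.22 for Lrp1, -0.14 for Cyp2s1, -0.035 for Ncor1 and -0.072 for Tbx5, and 0.41 for Aldh1a1.

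Signs also turned in all 8 libraries, with log2 fold changes of 0.79 for Crabp1 (1.35 as the difference of log2 CPM in the permutation test), -0.22 for Lrp1, -0.13 for Cyp2s1, -0.047 for Ncor1 and -0.060 for Tbx5, and -0.14 for the Aldh1a2 to Cyp26b1 ratio. In 7 libraries without TO 1 they were 0.24 for Crabp1 (0.50 in the permutation test), -0.063 for Lrp1, -0.040 for Cyp2s1 and -0.0075 for Ncor1. DESeq2 in 8 libraries gave 1.01 for Crabp1, -0.21 for Lrp1, -0.15 for Cyp2s1, -0.031 for Ncor1 and -0.037 for Tbx5. All 8 libraries but TO 2, a choice made after seeing the data, gave 1.18 for Crabp1, -0.22 for Lrp1, -0.032 for Aldh1a7, -0.19 for Cyp2s1, -0.0079 for Ncor1 and -0.19 for Tbx5, and 0.14 for Aldh1a1. The first-strand counts gave 0.029 for Rara.

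With 1 of the 6 libraries left out, log2 fold changes spanned -0.12 to 0.30 for Aldh1a2, -0.11 to 0.11 for Rara, -0.095 to 0.42 for Rarb, -0.24 to 0.026 for Rarg, -0.96 to 0.15 for Crabp1, -0.069 to 0.30 for Cyp26b1 and -0.95 to 0.70 for Stra6. Those of Aldh1a1 kept their sign, from 0.30 without TO 2 to 0.98 without TO 4 (adjusted p 0.112, edgeR). Further spans were -0.023 to 0.32 for Lrp1, -0.022 to 0.20 for Aldh1a7, -0.11 to 0.050 for Nr2f2, -0.033 to 0.22 for Tbx5, -0.60 to 0.60 for Rbp4, -3.95 to 5.74 for Ttr and -0.44 to 0.40 for the Aldh1a2 to Cyp26b1 ratio. Depth limits Stra6 and Crabp1, counted with 58 read pairs or fewer in each library, and all values of TO 1.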
